A study of Mus musculus with 135 samples.

Results

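The genes described here encode the surface proteins by which mouse haematopoietic stem cells (HSCs) are sorted and subdivided. They are the 10 genes *Kit*, *Ly6a*, *Slamf1*, *Cd48*, *Procr*, *Esam*, *Cd34*, *Flt3*, *Thy1* and *Cd27*, taken as a given list, and all 10 were among the 15181 genes of the read count table. HSCs sit at the top of blood formation in the bone marrow and give rise to every blood lineage. Because no single protein marks them, they are enriched with antibody panels: lineage antigens are depleted, the receptor c-Kit (encoded by *Kit*) and Sca-1 (*Ly6a*) define the LSK fraction, and the SLAM family receptors CD150 (*Slamf1*) and CD48 separate stem cells from multipotent progenitors within it. CD34, FLT3, CD27 and Thy1 are used to divide the same fraction further, and EPCR (*Procr*) and ESAM are surface proteins on which highly purified HSCs are selected.

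Single HSCs had been sorted from the bone marrow of C57BL/6 mice as 7AAD- and Lin- cells that were positive for Sca-1, c-Kit and CD150 and negative for CD48 (LSK CD150+CD48-). The young group was aged 2 to 3 months and the old group 20 to 25 months. Both groups came from Vwf-eGFP reporter mice, in which a transgene places the fluorescent protein under the control of *Vwf*. No gate on CD34 or on the reporter is given for these cells. The cells were captured on microfluidic C1 chips and their polyA RNA was amplified and sequenced as single-end reads.

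The table held 61 young and 74 old cells, and the 52 young and 62 old cells that passed the quality limits of the study were used first, with the whole table beside them. Between 273236 and 5688706 reads were counted per young cell, with a median of 2798990, and between 276316 and 4086659 per old cell, with a median of 2116024. Each age was 1 mouse, and the cells of 1 mouse are not replicates, so differences between the ages could not be set against the spread between mice, and p-values are not given. The 2 mice also differed in sex-linked transcripts, with *Xist* in 50 young and 8 old cells and any of 4 Y-linked genes in 2 young and 58 old ones. Age, mouse, sex-linked expression and any difference between capture runs, which the labels do not name, cannot be told apart.

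The level of a gene in a cell is given as log2(CPM + 1), where CPM is its reads scaled to a library of 1000000 counted reads, and a cell counted as expressing when this value was above 2, which is above 3 CPM. A difference is the mean over old cells minus the mean over young cells on this scale, which understates the change of weakly expressed genes, and 2-fold is a difference of 1. Intervals of shares are 95% exact Clopper-Pearson intervals. These intervals cover only the counting of cells within 1 mouse, and not the spread between mice. The reads carry no molecular identifiers, so counts of reads are not counts of molecules. Where no cell passed the limit, the share that 3 such cells would make is given as the most that the count of 0 allows, which for 62 old cells is 4.84%, while the exact interval reaches 5.78%.

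The sorted cells carried HSC transcripts. *Meis1* was expressed in 114 of 114 cells, and the median cell expressed 6 of 9 HSC identity genes at either age. Among these, the transcription factor genes *Hlf* and *Mecom* were expressed in 104 and 83 cells, and *Fgd5* in 20. Some defining genes of other cell types were rare. The granule protein gene *Mpo* was expressed in 3 cells, the neutrophil elastase gene *Elane* in 1 and the endothelial receptor gene *Kdr* in 2. The mast cell protease gene *Cpa3* was expressed in 0 of 114 (which allows a share of up to 2.63%), and the erythroid factor gene *Klf1* in 2. Other genes listed for such cell types were frequent, with *Lyz2* (lysozyme) in 86 cells, the endothelial *Egfl7* in 39, *Cd3d* in 32, *Cd79b* in 28 and *Lepr* in all 114. Of the megakaryocyte and platelet genes, *Vwf* was expressed in 67 cells, *Gp9* in 38, *Itga2b* in 30 and *Pf4* in 16. *Ppbp* and *Gp5* were expressed in 4 each and *Gp1bb* in 3.

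Of the 10 marker genes, *Esam* and *Ly6a* were at least 2-fold higher in the old cells and *Cd34* was at least 2-fold lower. Over the 15014 genes with a read, 3.91% were at least 2-fold higher and 4.49% at least 2-fold lower by the same measure, and among the 9374 genes that at least 10% of cells expressed, these shares were 6.24% and 6.98%. The median difference was 0.41 over the 10 genes and -0.02 over all genes. The mean was higher in old cells for 5 genes, *Kit*, *Ly6a*, *Slamf1*, *Procr* and *Esam*, and lower for the other 5. For 0 of the 10 genes did the intervals of the share of expressing cells separate the ages at this limit. They did so for 0.899% of all genes in the direction of old cells and for 0.733% in the direction of young cells. At least 1 read was present for *Esam* in 20 young and 47 old cells, for *Ly6a* in 39 and 59 and for *Flt3* in 18 and 2. Intervals of single genes were not computed for 1 read.

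**Figure D1:**
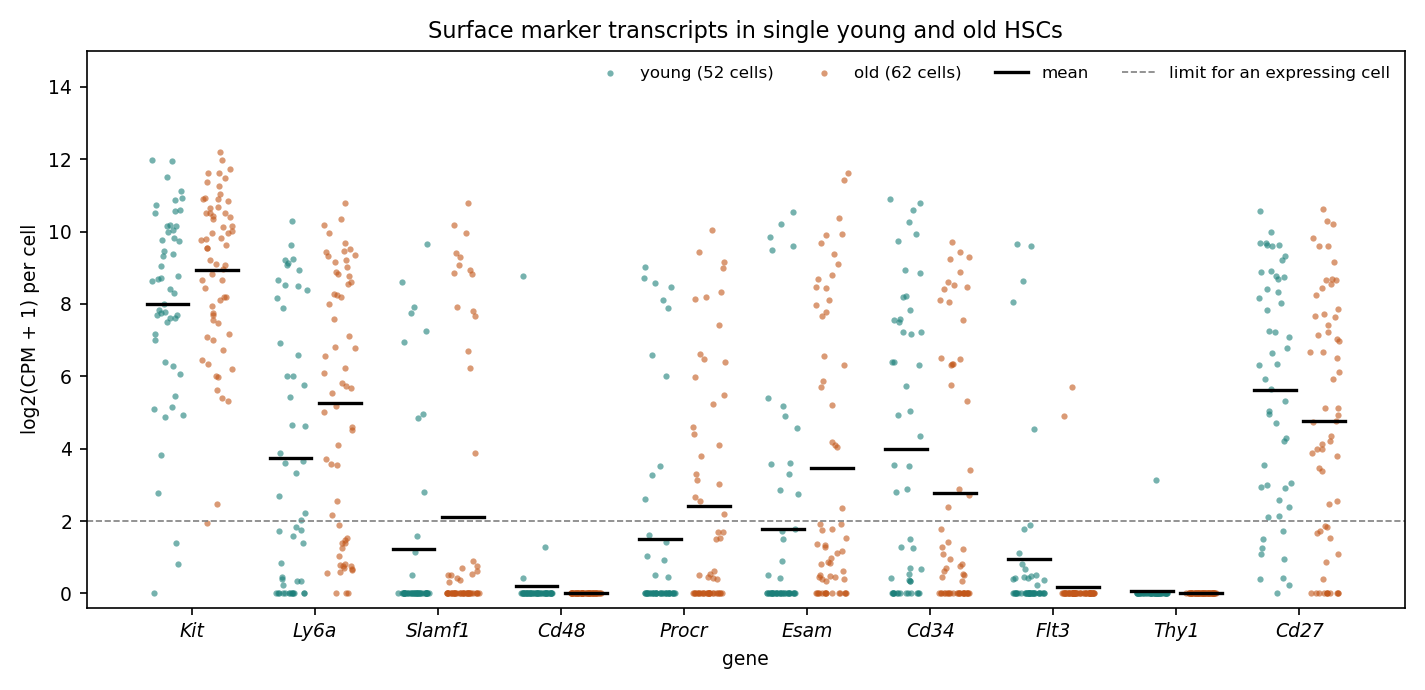
Level of each marker gene in every analysed cell, on the vertical axis as log2(CPM + 1), with young cells (52) in green and old cells (62) in orange, the mean as a black bar and the limit for an expressing cell as a dashed line. *Kit* lies above the limit in nearly every cell, and *Cd48* and *Thy1* in 1 young cell each. *Flt3* reaches 9.66 in young and 5.70 in old cells, and the young and old points of the other genes overlap over most of their range.

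*Kit* encodes the receptor for stem cell factor and lies on chr5:75574987-75656722 (mm10, as are all positions given). In young cells its level ran from 0.00 through a median of 8.53 to 11.98, and in old cells from 1.96 through 9.54 to 12.20. Expression was found in 49 of the 52 young cells (94.2%, interval 84.1 to 98.8%) and 61 of the 62 old ones (98.4%, 91.3 to 100%). The ages overlapped over nearly the whole range, with low values in a few cells of each. The mean was 8.0 (SD over cells 2.79) in young and 8.93 (SD 2.22) in old cells, a difference of 0.93. The cells had been selected for its protein.

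The cells that fell below the limit for *Kit* were 3 young cells, at 0.00, 0.83 and 1.38, and 1 old cell at 1.96. The young cell at 0.00 held 981155 counted reads, well below the young median, the others 2591768 and 3109424, and the old cell 3124806. The 3 young cells expressed *Procr* (8.10, 7.88 and 3.28) and *Cd34* (7.24, 9.75 and 5.05), and each expressed 5 to 7 of the 9 HSC identity genes. The old cell expressed *Ly6a* at 5.69 and *Cd27* at 7.87.

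*Ly6a* encodes Sca-1, a protein anchored in the membrane by a lipid tail, and lies on chr15:74994877-74998031. Its level ran from 0.00 through a median of 2.46 to 10.30 in young cells and from 0.00 through 5.71 to 10.79 in old cells. It was expressed in 28 young cells (53.8%, 39.5 to 67.8%) and 43 old cells (69.4%, 56.3 to 80.4%). The old median was higher, but each age held both cells without a read and cells above 10. The mean was 3.73 (SD 3.61) in young and 5.28 (SD 3.55) in old cells, a difference of 1.55. Although every cell had been gated on the protein, at least 1 *Ly6a* read was present in 39 young and 59 old cells, and 11 young and 16 old cells held reads without passing the limit.

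Other Ly6 genes resemble *Ly6a* in sequence, and single alignments can place reads of one on another. *Ly6i* was expressed in 10 young and 21 old cells and *Ly6c1* in 10 and 16, and every one of these cells also expressed *Ly6a*. Their summed reads were small beside the 19773 young and 28563 old reads of *Ly6a*, at 275 and 438 for *Ly6i* and 254 and 279 for *Ly6c1*. Whether reads were exchanged between these genes was not tested. *Ly6e*, a more distant member, was expressed in 51 young and 61 old cells at means of 8.96 and 9.81, a difference of 0.85. Of the 10 Ly6 genes listed, 6 were in the table and 1, *Ly6a*, differed by 2-fold. Over all genes with a read, 3.91% were higher and 4.49% lower, and 4 of the 6 were expressed in at least 10% of cells.

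*Slamf1*, on chr1:171767131-171801184, encodes CD150, a self-binding receptor whose protein was required by the gate. Its median level was 0.00 at both ages, and the highest value was 9.65 in young and 10.79 in old cells. It was expressed in 9 young cells (17.3%, 8.23 to 30.3%) and 15 old cells (24.2%, 14.2 to 36.7%), so that most cells sorted as CD150+ held too few *Slamf1* reads to pass the limit at either age. Among the expressing cells the median was 7.26 in young and 8.85 in old. The means were 1.23 (SD 2.70) and 2.12 (SD 3.67), a difference of 0.88, and the ages overlapped. The mean CPM rather than the mean log level gave a larger difference, at 38.4 in young and 129 in old cells (1.75 on the log2 scale).

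*Cd48*, beside *Slamf1* on chr1:171681245-171705258, encodes the receptor on whose absence the cells were selected. The transcript passed the limit in 1 young cell (1.92%, 0.0487 to 10.3%) and in 0 of 62 old cells, which allows a share of up to 4.84%. Of the 1185 *Cd48* reads in young cells, 1183 lay in this 1 cell, at a level of 8.79. The same cell expressed *Kit* at 10.74, *Cd34* at 7.58 and 7 of 9 HSC identity genes, and it held 0 reads of *Ly6a* and of *Slamf1*. Only 2 further young cells held a *Cd48* read, and the old cells held none.

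Of 9 SLAM family genes listed, *Slamf1* and *Cd48* included, 7 were in the table and 0 differed by 2-fold in either direction. Over all genes with a read, 3.91% were higher and 4.49% lower, so 0 of 7 is near those shares. Only 3 of the 7 were expressed in at least 10% of cells. *Cd84* was the most frequent, in 46 young and 58 old cells with means of 5.63 and 6.23, followed by *Slamf8* in 34 and 39 cells with means of 2.49 and 2.53. *Cd244*, a receptor for CD48, was expressed in 1 young and 1 old cell and *Ly9* in 3 and 1.

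Few cells held transcripts of all 3 positively selected proteins above the limit, which *Slamf1* passed in only 9 young and 15 old cells. Whether the 3 genes tended to occur together or apart was not tested. *Kit*, *Ly6a* and *Slamf1* were all expressed in 5 of 52 young cells (9.62%, 3.20 to 21%) and in 10 of 62 old cells (16.1%, 8.02 to 27.7%), and none of these cells expressed *Cd48*. Of the 3, *Kit* alone was expressed in 18 young and 14 old cells. All 24 cells with *Slamf1* expressed *Kit*. None of the 3 transcripts passed the limit in 2 young cells and in 0 old cells.

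*Procr* encodes EPCR, the endothelial receptor for protein C, and lies on chr2:155751125-155755478. Its median level was 0.00 in young and 0.49 in old cells, its lowest 0.00 at both ages and its highest 9.01 and 10.05. It passed the limit in 11 young cells (21.2%, 11.1 to 34.7%) and 24 old cells (38.7%, 26.6 to 51.9%). The groups overlapped, and the expressing cells were not higher in old, with medians of 7.88 in young and 5.73 in old. The means were 1.51 and 2.41, a difference of 0.89.

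*Esam*, on chr9:37528089-37538319, encodes an adhesion molecule of the immunoglobulin family found on endothelium, platelets and HSCs, and had the largest difference of the 10 genes on this scale. Its lowest value was 0.00 at both ages, its median 0.00 in young and 1.35 in old, and its highest 10.55 and 11.62. Expression passed the limit in 14 young cells (26.9%, 15.6 to 41%) and 25 old cells (40.3%, 28.1 to 53.6%). The mean was 1.78 in young and 3.45 in old cells, a difference of 1.67. Expressing cells had a median of 5.04 in young and 8.12 in old, but high and empty cells occurred at both ages. A further 6 young and 22 old cells held *Esam* reads below the limit, so that at least 1 read was present in 20 young and 47 old cells.

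At least 1 of *Procr* and *Esam* was expressed in 22 young cells (42.3%, 28.7 to 56.8%) and 40 old cells (64.5%, 51.3 to 76.3%). Both were expressed in 3 young and 9 old cells, and whether they tended to occur together or apart was not tested. *Procr* and *Slamf1* were expressed together in 3 young and 6 old cells.

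**Figure D2:**
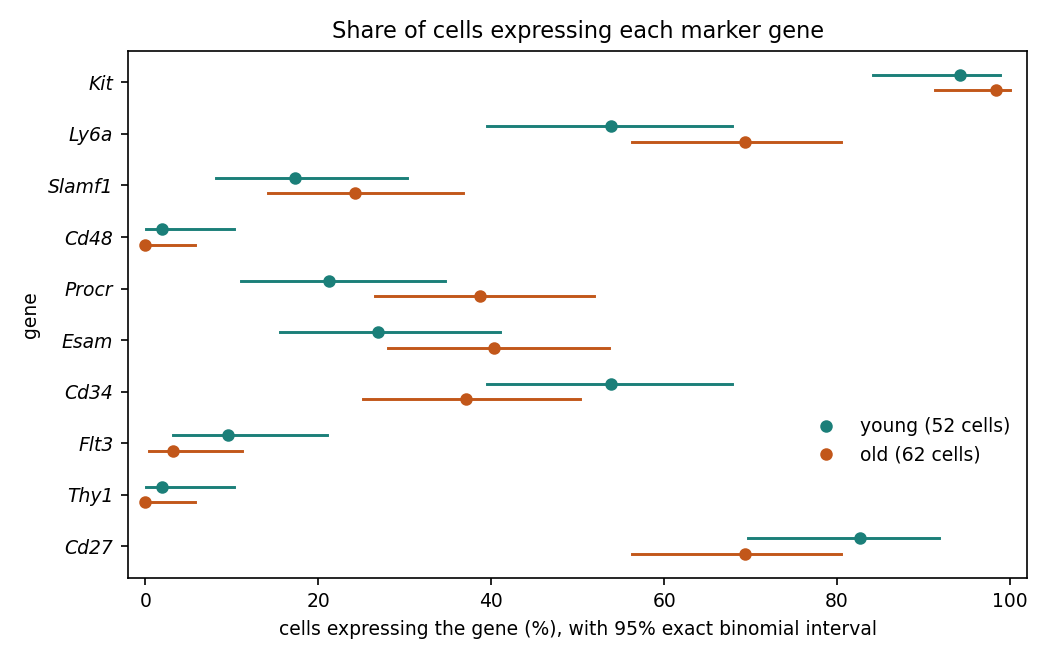
Percentage of young (green, 52 cells) and old (orange, 62 cells) cells expressing each marker gene, with lines for the 95% exact binomial interval. The young and old intervals overlap for all 10 genes, with *Ly6a*, *Procr* and *Esam* higher in the old cells and *Cd34* and *Cd27* higher in the young.

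*Cd34* encodes a sialomucin whose protein is low or absent on long-term HSCs and present on multipotent progenitors of adult mice, and lies on chr1:194938821-194961292. Its level ran from 0.00 through a median of 3.21 to 10.91 in young cells and from 0.00 through 0.72 to 9.71 in old cells. It was expressed in 28 young cells (53.8%, 39.5 to 67.8%) and 23 old cells (37.1%, 25.2 to 50.3%). The young median was higher, while the ranges coincided except at the top. The means were 4.0 and 2.76, a difference of -1.24. Among expressing cells the medians were close, at 7.38 in young and 7.55 in old.

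The *Cd34* difference was smaller among cells without cell cycle transcripts. The cell cycle genes *Ccna2*, *Ccnb1*, *Cdk1* and *Cdc25c* were each at least 2-fold lower in old cells, and 27 young and 13 old cells expressed at least 1 of them. Among the 25 young and 49 old cells without any of them, *Cd34* was expressed in 12 and 19 cells at means of 3.39 and 2.86, a difference of -0.53. *Gm16897* lies on the opposite strand across exons of *Cd34* and was expressed in 1 young and 2 old cells, and whether reads of the pair were told apart by strand is not given in the sources used here.

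*Flt3*, on chr5:147330741-147400489, encodes the receptor for FLT3 ligand, whose protein marks progenitors that have lost long-term stem cell activity. Expression was found in 5 young cells (9.62%, 3.20 to 21%) and 2 old cells (3.23%, 0.393 to 11.2%). The median was 0.00 at both ages and the highest value 9.66 in young and 5.70 in old, so that 4 young cells lay above the highest old cell. The means were 0.96 and 0.17, a difference of -0.79. Summed reads were 6167 in young cells, while the 2 old cells held 127 and 8. At least 1 read was present in 18 young and 2 old cells.

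The 7 *Flt3* cells all expressed *Kit* and *Cd27*. *Ly6a* was expressed in 1 of the 5 young and in both old cells, *Cd34* in 3 of the 5 and in 1 of the 2, and *Slamf1* in 1 young cell. That young cell held 1974 *Flt3* reads (level 9.60) beside *Slamf1* at 8.62, *Procr* at 8.46 and *Cd34* at 8.19. The young cell with the highest *Flt3* level, 9.66, also had *Cd34* at 10.80, and expressed 3 of 9 HSC identity genes.

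Defining genes of lymphoid progenitors were sparse beside *Flt3*. *Il7r* was expressed in 0 of 114 cells and *Dntt* in 2 young cells.

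*Thy1*, on chr9:44043384-44048579, encodes a small membrane protein that is found on HSCs at low density in some strains. In these C57BL/6 cells it passed the limit in 1 young cell (1.92%, 0.0487 to 10.3%), at 3.13 from 30 reads, and in 0 of 62 old cells, which allows a share of up to 4.84%. No other cell of either age held a *Thy1* read.

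*Cd27* encodes a receptor of the tumour necrosis factor receptor family and lies on chr6:125232620-125237136. Its level ran from 0.00 through a median of 6.12 to 10.57 in young cells and from 0.00 through 4.76 to 10.63 in old cells. *Cd27* passed the limit in 43 cells of each age (82.7% of the young cells, interval 69.7 to 91.8%, and 69.4% of the old, interval 56.3 to 80.4%). The means were 5.62 and 4.76, a difference of -0.86, and the ages overlapped throughout. Among the cells without cell cycle transcripts the difference was larger at -1.85, with 22 of 25 young cells and 30 of 49 old ones expressing *Cd27*, and all 13 old cells with such transcripts expressed it.

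**Figure D3:**
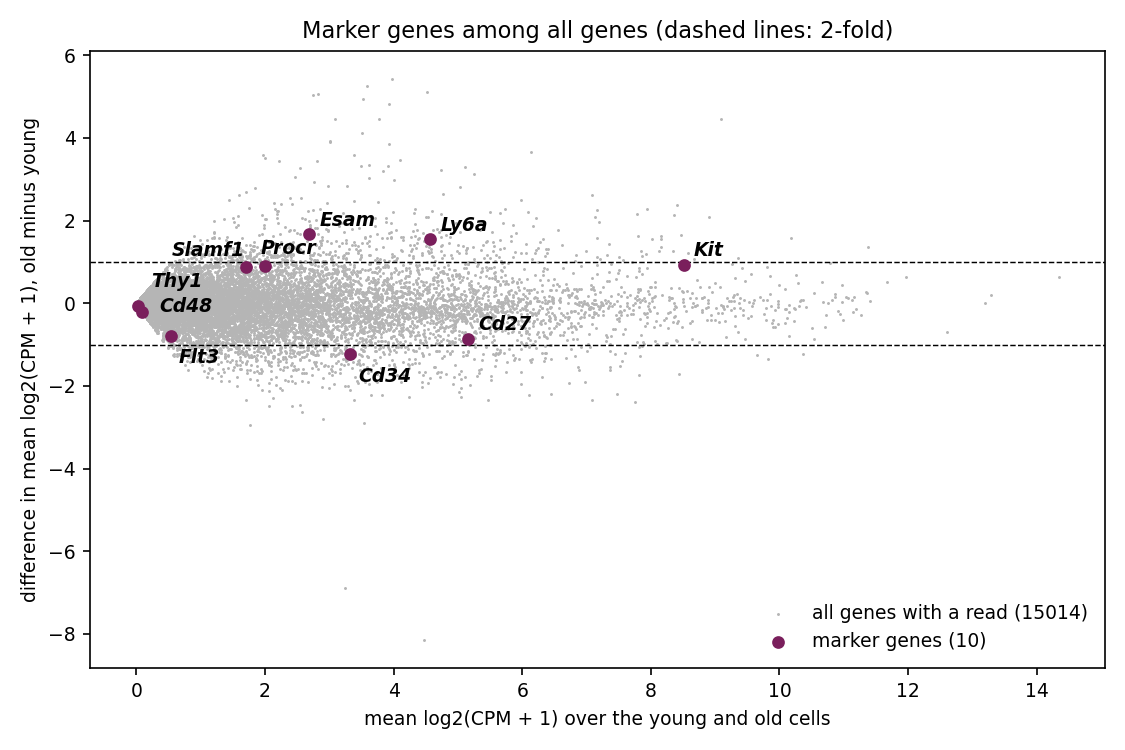
Difference between the ages (vertical axis, mean log2(CPM + 1) of old minus young cells) against the mean level over all 114 cells (horizontal axis) for the 15014 genes with a read (grey) and the 10 marker genes (purple), with dashed lines at 2-fold. *Esam* and *Ly6a* lie above the upper line and *Cd34* below the lower one, and *Kit*, *Slamf1*, *Procr*, *Cd27* and *Flt3* lie inside the lines by less than 0.25.

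Expressed per kilobase of transcript, which allows genes to be set beside each other, the order of mean levels was *Cd27*, *Ly6a*, *Kit*, *Cd34*, *Esam*, *Procr*, *Slamf1*, *Flt3*, *Cd48* and *Thy1* in young cells. In young cells *Cd27* stood at 290 CPM per kilobase (SD over cells 405), *Ly6a* at 148 (SD 272), *Kit* at 143 (SD 180) and *Cd34* at 88.5 (SD 184). In old cells the order began with *Ly6a* at 264 (SD 392), *Cd27* at 224 (SD 403), *Kit* at 200 (SD 208) and *Esam* at 122 (SD 308). *Cd34* took the fourth place in young cells and the seventh in old cells, at 38.4 (SD 78.2). Between neighbours with reads, the gap in either order was smaller than the SD over cells of the higher gene. That SD is the spread between cells and not the error of a mean, and whether neighbouring genes differ was not tested.

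The combination of *Ly6a* and *Cd34* differed most between the ages among the combinations counted. *Ly6a* without *Cd34* was expressed in 11 young cells (21.2%, 11.1 to 34.7%) and 33 old cells (53.2%, 40.1 to 66%), and these intervals did not overlap. This was 1 of 23 combinations counted and is singled out after its values were seen. Both genes were expressed in 17 young and 10 old cells, *Cd34* alone in 11 and 13, and neither in 13 and 6. With at least 1 read taken as expression the shares were 17.3% (8.23 to 30.3%) and 40.3% (28.1 to 53.6%), and with a limit of 4 they were 25% (14 to 38.9%) and 51.6% (38.6 to 64.5%). The intervals overlap under both of these limits. Over the whole table of cells they were 21.3% (11.9 to 33.7%) and 54.1% (42.1 to 65.7%). The profile without *Cd34* and without *Flt3* was found in 22 young cells (42.3%, 28.7 to 56.8%) and 38 old cells (61.3%, 48.1 to 73.4%).

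**Figure D4:**
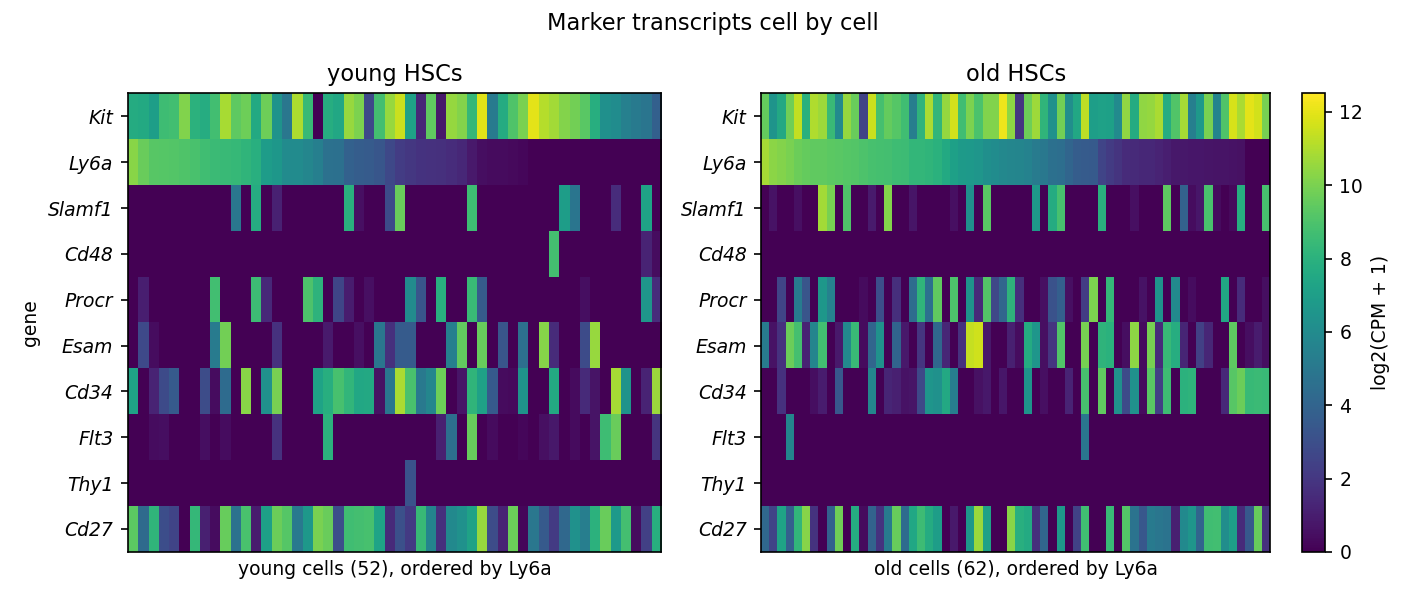
Heat map of the 10 marker genes (rows) in each analysed cell (columns), young on the left and old on the right, coloured by log2(CPM + 1) and ordered by *Ly6a*. In old cells the strongest *Cd34* values gather at the low end of *Ly6a*, while in young cells they are spread along it.

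Correlations between the marker genes across cells of 1 age were low, and the part of undetected transcripts in this was not tested. Over 45 pairs in young cells Spearman's rho ran from -0.34 (*Kit* with *Procr*) to 0.39 (*Kit* with *Esam*), with a median of -0.03. Over 28 pairs in old cells it ran from -0.40 (*Ly6a* with *Cd34*) to 0.30 (*Kit* with *Cd34*), with a median of 0.04. *Cd48* and *Thy1* had no read in old cells, and a read in only 3 and 1 young cells. The young pairs with these genes thus rest on few cells with a read. The pair *Ly6a* and *Cd34* had a rho of -0.03 in young cells. These values describe 52 and 62 cells that share a mouse within each age, and the labels name no capture run. No other gene of 6037 compared reached a rho of 0.4 at both ages with *Ly6a*, *Procr*, *Esam* or *Cd34*, so none is named as having a like pattern.

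A cell expressed a median of 4 of the 10 genes at either age, from 1 to 7 in young and from 2 to 7 in old cells. Cells with more counted reads expressed fewer of them, with a rho of -0.34 in young and -0.47 in old cells, and the part of depth in the results was not tested beyond the settings reported.

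*Vwf*, whose promoter drives the reporter and which marks platelet-primed HSCs, was expressed in 30 young and 37 old cells. *Slamf1* was expressed in 6 of 30 young cells with *Vwf* and 3 of 22 without, and in 12 of 37 and 3 of 25 old cells. *Cd27* was expressed in 21 of 30 young cells with *Vwf* and in 22 of 22 without, and in 25 of 37 and 18 of 25 old cells. *Cd34* was less frequent with *Vwf* in young cells, in 13 of 30 against 15 of 22, and more frequent in old cells, in 15 of 37 against 8 of 25. These splits compare cells within 1 mouse and were not tested.

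Among 20 other surface proteins of HSCs, 8 were at least 2-fold higher in old cells and 2 lower, with a median difference of 0.48. All 20 were expressed in at least 10% of cells, and of all such genes 6.24% were higher and 6.98% lower. The integrin gene *Itgb3* was expressed in 11 young and 40 old cells (difference 2.83), *Itga6* in 31 and 48 (2.65) and the adhesion molecule gene *Alcam* in 26 and 42 (2.18). The sialomucin gene *Emcn* was expressed in 20 young and 7 old cells (-1.59), and *Cxcr4*, the receptor by which HSCs are held in the marrow, in 21 and 7 (-1.58). Of 18 ligands and signalling partners of the 10 marker proteins, 14 were in the table, of which 2 were 2-fold higher and 0 lower, against 3.91% and 4.49% of all genes with a read. These were *F2r*, the gene of the thrombin receptor PAR1, which signals with EPCR, expressed in 7 young and 29 old cells (2.23), and *Grb2*, an adaptor of c-Kit signalling, in 22 and 36 (1.12). *Kitl*, the ligand gene of c-Kit, was expressed in 0 of 114 cells.

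Lists of stem cell and lineage genes were set beside the marker genes. Of 9 HSC identity genes 2 were 2-fold higher in old cells, *Gata2* (2.39) and *Pdzk1ip1* (1.13), and 0 were called lower. Of the genes expressed in 10% of cells or more, 6.24% were higher and 6.98% lower. *Mecom* lay at the lower 2-fold limit without passing it, with means of 5.29 in young and 4.29 in old cells. It was expressed in 43 young and 40 old cells. Its difference ran from -1.44 with a pseudocount of 0.1 CPM to 0.35 as a log2 ratio of mean CPM. Of 7 megakaryocyte and platelet genes 0 differed by 2-fold, where 3.91% of all genes with a read were higher and 4.49% lower. A count of 0 in a list this short is near those shares, here and for the lists below. The paper names *Itgb3* among platelet-lineage genes raised in old HSCs, and it was listed here with the other surface proteins (2.83). Its other genes of that group, *Clu*, *Selp*, *Sdpr*, *Fhl1* and *Tgm2*, were not in these lists. The paper also reports that whole gene sets of megakaryocyte progenitors and of megakaryocyte/erythroid progenitors were enriched in old HSCs. That enrichment was not examined here. The summed level of the 7 genes had a median of 58.2 CPM in young cells (0 to 1648) and 195 CPM in old cells (0 to 4227). At least 1 of them was expressed in 38 young and 48 old cells. Of 6 endothelial genes in the table, the tissue in which *Esam* and *Procr* are also known, 0 differed by 2-fold, with summed medians of 0.304 CPM (0 to 483) and 2.93 CPM (0 to 963). Of the 5 myeloid, 2 B and T cell, 2 mast cell, 3 erythroid and 4 stromal genes in the table, 0 differed by 2-fold. These counts stand beside the same 3.91% and 4.49% of all genes with a read. Among 5 genes listed for the lineage depletion, 0 differed by 2-fold. *Cd4*, *Cd8a* and *Itgam* were expressed in 5, 6 and 9 cells. *Cd8b1* passed the limit in 88, from only 831 young and 719 old summed reads at means of 2.70 and 2.63. *Ptprc* encodes the common leukocyte antigen, which is not confined to lineage-positive cells, and was expressed in 98. The part of these lists in the marker gene differences was not tested.

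The differences of the marker genes kept their sign under every setting tried, apart from *Thy1*, which is at 0.00 without its 1 expressing cell, with sizes that depended on the setting. Over the whole table, *Ly6a* was expressed in 33 young and 52 old cells, *Procr* in 12 and 28, *Esam* in 16 and 30, *Cd34* in 32 and 25 and *Cd27* in 51 and 51. On the scale of mean log levels *Esam* stayed at least 2-fold higher in all of them, at 1.54 without the old cell with most of its reads. As a ratio of mean CPM it was at 1.16 on the log2 scale, and at 0.82 without that cell. *Ly6a* lay at 0.83 as a ratio of mean CPM and at 0.97 in cells without cell cycle transcripts, in which *Cd34* also lay inside 2-fold. *Cd34* lay at -1.10 without the young cell with most of its reads.

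Genes that lay just inside 2-fold as reported crossed it in part of the settings. *Kit* reached 1.01 to 1.33 with the whole table of cells, the cells of the criteria of Kowalczyk et al., the cells without cell cycle transcripts, a pseudocount of 0.1 CPM, TMMwsp factors and without the young cell with most of its reads. *Procr* reached 1.0 to 1.55 under the same settings with cells of at least 1000000 reads in place of TMMwsp factors. *Slamf1* reached 1.03 to 1.75 with cells of at least 1000000 reads, cells without cell cycle transcripts, the lower pseudocount, the ratio of mean CPM and without its top young cell. *Cd27* was lower by 2-fold with the whole table (-1.23), in cells without cell cycle transcripts (-1.85) and with the lower pseudocount (-1.29), and *Flt3* with the lower pseudocount (-1.51) and as a ratio of mean CPM (-5.08).

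**Figure D5:**
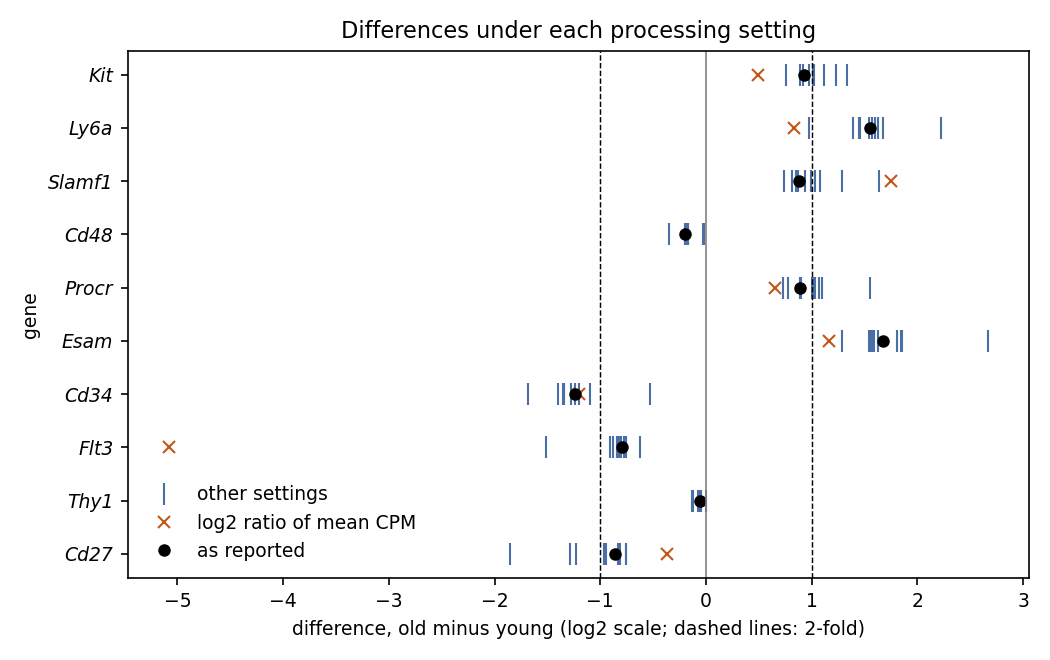
Difference between old and young cells (horizontal axis, log2 scale) for each marker gene as reported (black point), as a log2 ratio of mean CPM (orange cross) and under the other settings (blue ticks), with dashed lines at 2-fold. Apart from *Thy1*, which reaches 0 without its 1 expressing cell, each gene stays on 1 side of 0, and *Flt3* has the widest range, down to -5.08 for the ratio of mean CPM.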

How the data were processed

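The authors mapped 51 bp single-end reads to mm10 with Tophat, keeping 1 alignment per read (TopHat2 2.0.10 in the submitters' processing notes), and deposited the read counts per RefSeq gene and cell, without normalization. Whether the counting used strand is not given in the sources used here. Cells were grouped by the age in their labels, and those that met the study's criteria, as recorded in its table of cells, were analysed. Counts were divided by the total of their cell to give CPM, and levels were taken as log2(CPM + 1) with a pseudocount of 1 CPM. A cell expressed a gene above 2 on this scale. The 15014 genes with a read were compared between 1 young and 1 old mouse without a test. Positions are those of RefSeq on GRCm38 (mm10), and levels per kilobase used transcript lengths of GENCODE M21. The marker genes and the lists set beside them were chosen with earlier results of these data known. Of each list at most 5 genes expressed in at least 10% of cells are named by the size of their difference, or the 2 most frequent where fewer pass, and other genes named were chosen after their values were seen. The steps were tested on simulated counts. The software was scipy 1.17.1 and pandas 2.3.3 under Python 3.11.15, and edgeR 4.0.16 and DESeq2 1.42.0 under R 4.3.3, the last 2 for scaling factors only. Other experiments of the study were not analysed here. The count over the list of lymphoid progenitor genes is not reported here.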

Additional observations from a re-analysis of the deposited data

How the results depend on the processing

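Of 108 level differences of the marker genes under alternative settings, 98 changed the fold they stand for (2 raised to the difference) by less than 1.5 times, 10 changed it further and 0 turned direction. The settings were other sets of cells, thinning, another pseudocount, a ratio of mean CPM, TMMwsp and poscounts factors, and, added after seeing the data, leaving out the cell with most reads of the gene. The number of marker genes at least 2-fold higher in old cells was 2 as reported, 4 with the whole table of cells, with those of the criteria of Kowalczyk et al. (58 young and 70 old), with cells of at least 1000000 reads (47 and 51) and with cells without cell cycle transcripts (25 and 49), and 5 with a pseudocount of 0.1 CPM and at a limit of 1.5-fold. The number at least 2-fold lower was 1 as reported, 2 with the whole table and as a ratio of mean CPM (which *Cd48* and *Thy1*, without a read in old cells, do not have), and 3 with a pseudocount of 0.1 CPM and at 1.5-fold. The share of all genes at least 2-fold higher moved from 3.91% to 7.75% in cells without cell cycle transcripts, 8.21% with a pseudocount of 0.1 CPM, 19.8% as a ratio of mean CPM, 6.24% among genes that 10% of cells or more expressed and 9.58% at 1.5-fold. The share lower moved from 4.49% to 10.9%, 20.4%, 6.98% and 12.3% under the last 4 of these. Old cells expressing *Kit*, *Ly6a* and *Slamf1* together were 16.1% as reported and 38.7% with 1 read taken as expression. The cause of these changes was not tested. The median difference over all genes stayed between -0.06 and 0.03.

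No paired analysis was possible because the labels carry no replicate numbers and each age is 1 mouse, and for the same reason no run without a replicate was made. Most cells held few or no reads of *Cd48*, *Flt3*, *Thy1* and *Slamf1*, so a transcript that was not detected is not shown to be absent. A read alone passed the limit for expression in 2 young and 2 old cells. Transcript levels were measured and the surface proteins used in the gate were not, and in cells selected by protein the levels of *Kit*, *Ly6a*, *Slamf1* and *Cd48* describe the gated cells.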
